A study of Mus musculus with 2 samples.

Results

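Liver, lung and gut genes were examined in a tissue outside these organs, the limb of mouse embryos at embryonic day 14.5. The set was a fixed list of 41 genes, out of 21938 protein-coding genes, chosen as markers of hepatocytes (22 genes), airway and lung epithelium (5), intestine (8) and pancreas or stomach (6). Open chromatin was mapped by DNase-seq, in which the enzyme DNase I cuts DNA that is not wrapped in nucleosomes or covered by other proteins, and the cut sites are sequenced. The study has 1 group, limb from strain B6NCrl with male and female embryos pooled, and no treatment or mutant allele in the labels. Its 2 biological replicates have separate biosample identifiers and the same donor identifier, and the labels do not say how the embryos were pooled. Peaks, 150 bp regions of high cutting, were called by the authors in each replicate on the mm10 build. They numbered 208674 in replicate 1 and 196593 in replicate 2 on the chromosomes used, of which 61.2% in replicate 1 were shared, meaning that a peak of replicate 2 covered at least 50% of them. The signal of a peak is the authors' value in their own unit, with a median of 42 in replicate 1 and 31 in replicate 2, so each peak is also given by its percentile in its own list. The number of reads is unknown, and a missing peak means only that none was called.

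Liver, lung and gut epithelia arise from endoderm. A small number of transcription factors, proteins that bind DNA and switch genes on, set the identity of each organ, and hepatocytes and acinar cells then make large amounts of plasma proteins or digestive enzymes. Promoters of regulators of development often lie in CpG islands, stretches rich in the dinucleotide CG that are open in most cell types. Promoters of plasma protein genes usually lack such islands and open mainly in the cells that use them. The 41 genes were therefore divided by role into 8 transcription factor genes, 28 genes of secreted proteins and enzymes, and 5 genes of carrier and structural proteins. The tissue label was checked first. All 12 limb markers, among them Prrx1, Hoxd13, Sox9 and Myod1, had a shared peak at a transcription start site (TSS), against 65.1% of all protein-coding genes. Of 4 blood cell markers (Gata1, Klf1, Spi1, Adgre1) none did, although Gata1 had a TSS peak in replicate 2. By the CpG classes defined below, 8 of the limb markers were in the highest, where 94.6% of all genes had a shared TSS peak. All 4 blood markers were in the lowest, where 13.5% did, so these counts are a weak check of the tissue.

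Few of these genes had an open start in the limb, and 3 of the 4 with a shared TSS peak encode transcription factors. A shared peak within 500 bp of any annotated TSS was found at 4 of the 41 genes (9.76%), against 14284 of all 21938 protein-coding genes (65.1%). They were the transcription factor genes Foxj1, Nr5a2 and Hnf4a and the secreted protein gene Proc. By role, 3 of 8 transcription factor genes (37.5%), 1 of 28 secreted and enzyme genes (3.57%) and 0 of 5 carrier and structural genes had one. Replicate 1 alone had a TSS peak at 6 of the 41 genes, against 69.4% of all genes, and replicate 2 alone also at 6, against 68.2%. By organ the counts were 2 of 22 for liver, 1 of 5 for lung, 0 of 8 for intestine and 1 of 6 for pancreas and stomach. With 1 group of samples these counts are descriptions, and no test was made over genes. In bulk tissue, a region open in few cells and a region weakly open in many cells cannot be told apart.

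**Figure D1:**
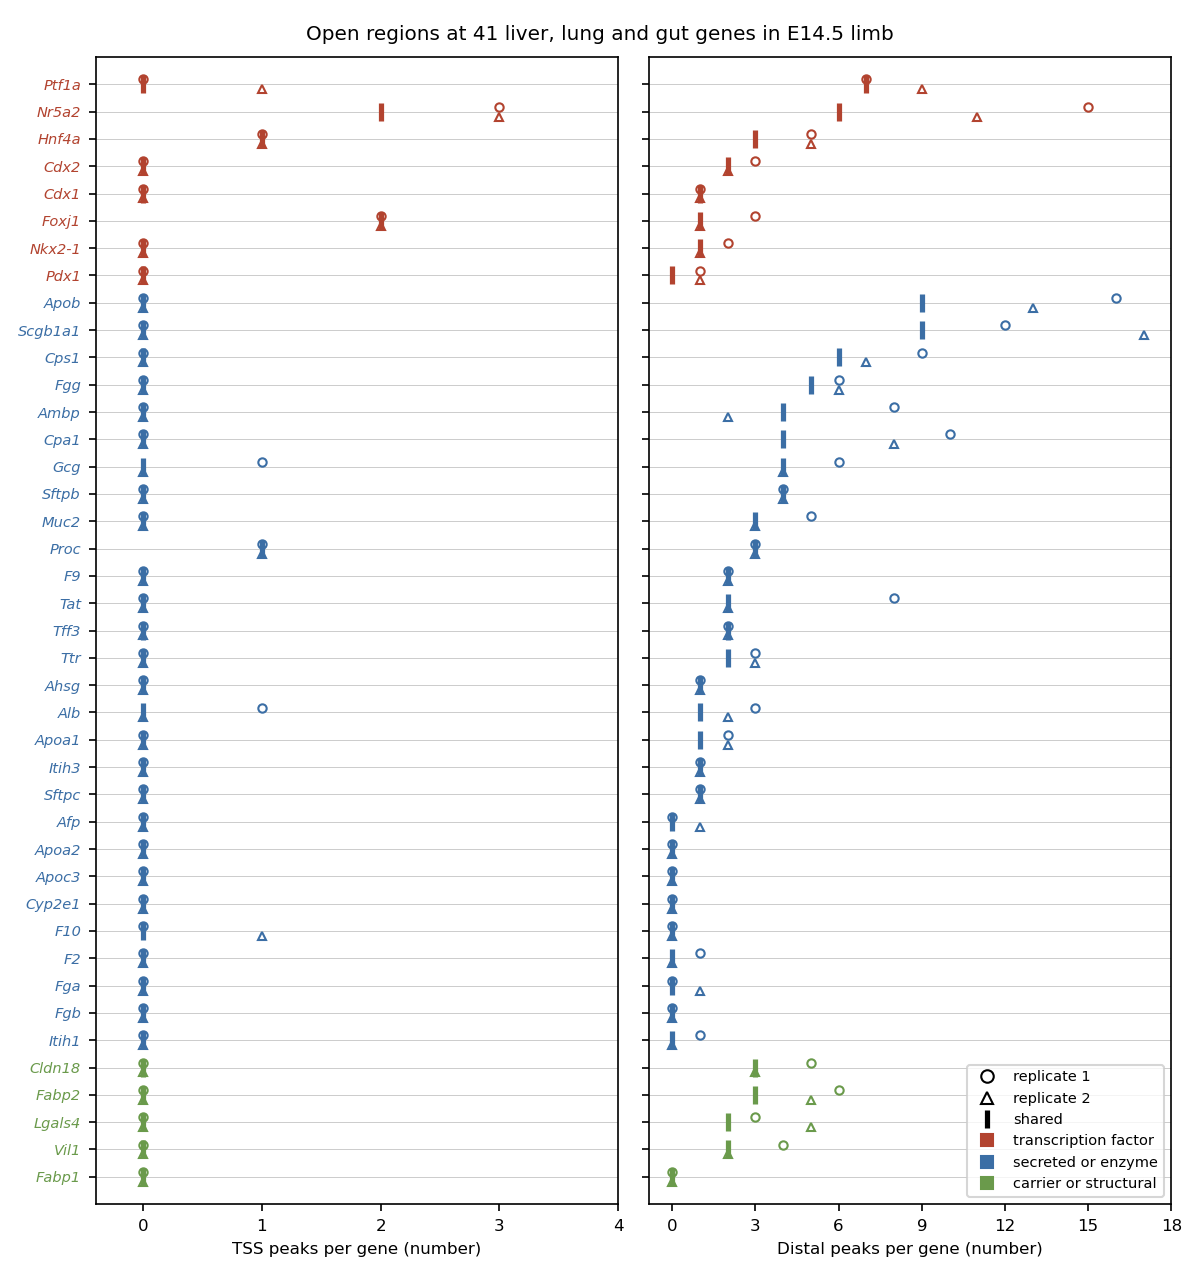
Number of TSS peaks (left) and distal peaks (right) for each of the 41 genes, one row per gene, in replicate 1 (circles), replicate 2 (triangles) and shared (upright ticks), coloured by role. In the left panel 33 genes lie at 0 in both replicates, while Nr5a2 has 3 in each replicate and Foxj1 has 2.

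Foxj1, the master regulator of motile cilia, had the strongest start of the set. Its peak 52 bp upstream of its only TSS was called in both replicates, at 121 in replicate 1 and 93 in replicate 2, the 96.9th and 96.3rd percentiles. A second shared peak, centred 472 bp upstream, had 82 and 45. Both lay in hotspots, the broader open regions the authors called, at the ceiling of 100 of the −log10 q-value. Nr5a2, a nuclear receptor of liver and pancreas, had its strongest start peak 42 bp downstream of an internal TSS, with 86 in replicate 1 and 39 in replicate 2 (88.6th and 66.3rd percentiles). A weaker peak on its gene-body side in each replicate (47 and 23) did not meet the overlap for shared. Another shared peak, 479 bp downstream of a TSS further 5′, had 35 and 27. The TSS of the principal transcript of Nr5a2, at 136960380 on chromosome 1, lay 7.23 kb from the nearest shared peak. Hnf4a, the nuclear receptor that maintains hepatocyte identity, had a weak peak of 29 and 26 (19.8th and 35.5th percentiles) 28 bp downstream of the start of a transcript at 163550083 on chromosome 2. The start of its principal transcript (163547188) was 2.92 kb from the nearest shared peak, and its outermost start (163506808) was 25.1 kb away. Of these 3 genes only Foxj1 was therefore open at the TSS of its principal transcript. The strongest shared TSS peak of each of these genes is given below on the plus strand of mm10. The second shared TSS peaks of Foxj1 and Nr5a2 are not shown. Capitals mark the GC box of SP and KLF factors (GGGCGG or CCGCCC), the E-box CAGCTG and, in Foxj1 directly after a GC box, the CDX and HOX13 site TTTATNG read from the other strand.
Foxj1, chr11:116335376-116335525, plus strand: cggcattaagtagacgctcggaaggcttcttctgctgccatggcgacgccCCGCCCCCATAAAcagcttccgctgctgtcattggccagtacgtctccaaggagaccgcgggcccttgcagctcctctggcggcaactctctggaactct
Nr5a2, chr1:136949056-136949205, plus strand: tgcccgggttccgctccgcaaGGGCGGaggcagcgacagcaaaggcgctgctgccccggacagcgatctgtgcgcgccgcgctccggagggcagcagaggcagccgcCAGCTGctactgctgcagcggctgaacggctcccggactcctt
Hnf4a, chr2:163550036-163550185, plus strand: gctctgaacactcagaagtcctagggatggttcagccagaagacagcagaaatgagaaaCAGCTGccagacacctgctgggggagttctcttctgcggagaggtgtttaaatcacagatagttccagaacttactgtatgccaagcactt

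Proc, which encodes the anticoagulant protease protein C, was the 1 secreted protein gene with a shared TSS peak. This peak, from 32138636 to 32138785 of chromosome 18, reached 66 in replicate 1 and 55 in replicate 2, the 78.1st and 83.6th percentiles, inside hotspots at the ceiling of 100. Its centre lay 512 bp upstream of a TSS, so that it reached the 500 bp window with its edge only, and 0.859 kb from the outermost TSS of the gene. The nearest shared peak outside the window, 600 bp upstream of an internal TSS of Afp, the fetal counterpart of albumin, had 79 and 42. Shared peaks also lay 952 bp inside Apob (84 and 52), which encodes the core protein of lipoproteins, 782 bp upstream of Itih1 (65 and 36), a hyaluronan-binding inhibitor chain, and 939 bp upstream of Sftpb (34 and 22), a lung surfactant protein, and 959 bp inside Nr5a2 (44 and 27).

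Peaks at 4 further genes were found in 1 replicate only, and all of them were weak. Alb, the main plasma protein, had a peak of 19 in replicate 1, the 2.25th percentile, 246 bp upstream of its main TSS, and none in replicate 2. Gcg, the glucagon precursor, had 21 in replicate 1 (3.94th percentile), beside the start of a processed transcript inside the gene, and the nearest shared peak lay 4.41 kb from that start. F10, coagulation factor X, had 17 in replicate 2 (8.19th percentile), and Ptf1a, a regulator of the exocrine pancreas, had 15 in replicate 2 (4.83rd percentile). None of these 4 peaks touched a peak or a hotspot of the other replicate. The remaining 33 genes had no TSS peak in either replicate, among them Apoa1, Apoa2, Apoc3, Ttr, the 3 fibrinogen genes, Cyp2e1, Sftpc and Muc2. A TSS peak in at least 1 replicate was thus found at 8 of the 41 genes, against 15526 of all 21938 protein-coding genes.

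The transcription factor genes differed from the others in the CpG content of their promoters, and the open starts were read against all genes of like content. CpG content is the observed number of CpGs over the number expected from the C and G bases within 500 bp of a TSS, the highest over the TSSs of a gene. Its median was 0.666 in the transcription factor genes and 0.235 in the secreted and enzyme genes, against 0.627 in all protein-coding genes. The carrier and structural genes had a median of 0.272. All 6 members above 0.60 were transcription factor genes, and no secreted or enzyme gene exceeded 0.472. Under 0.35, 2 of 26 members had a shared TSS peak (Hnf4a and Proc), against 13.5% of all 6749 genes of that class. Between 0.35 and 0.60 it was 0 of 9, against 67.6% of 3662 genes. Of those 9, 7 lay below 0.45, where 49.6% of all genes had one, a limit chosen after the values were seen.

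Above 0.60, 2 of 6 members had a shared TSS peak, against 94.6% of all 11527 genes of that class. Foxj1 (0.695) and Nr5a2 (0.61) had one, Nr5a2 at the internal TSS that gives this ratio, while the TSS of its principal transcript had 0.0905. Nkx2-1 (0.857), the regulator of lung and thyroid, Cdx1 (0.786) and Cdx2 (0.637), the caudal factors of the intestine, and Ptf1a (0.731) had none. No TSS peak was called in either replicate at Nkx2-1, Cdx1 and Cdx2, a state shared with 2.05% of all genes above 0.60. The nearest shared peak lay 4.36 kb from a TSS of Nkx2-1, 3.79 kb from that of Cdx1, 7.94 kb from that of Cdx2 and 2.51 kb from that of Ptf1a. Pdx1, the pancreatic homeodomain factor, had 0.563 and its nearest shared peak 23.4 kb away. The promoters of Nkx2-1, a CpG-rich start with no peak, and of Alb, a CpG-poor start with no shared peak, are shown from 250 bases before to 50 after the TSS in the direction of transcription (RefSeq, GRCm38.p6, the same assembly as mm10), with each CpG in capitals. The Nkx2-1 promoter shown belongs to its outer TSS, with a ratio of 0.668, and the 0.857 to an inner one. There are 12 CpGs in the first and 3 in the second.
Nkx2-1, chr12:56536859-56537158, minus strand: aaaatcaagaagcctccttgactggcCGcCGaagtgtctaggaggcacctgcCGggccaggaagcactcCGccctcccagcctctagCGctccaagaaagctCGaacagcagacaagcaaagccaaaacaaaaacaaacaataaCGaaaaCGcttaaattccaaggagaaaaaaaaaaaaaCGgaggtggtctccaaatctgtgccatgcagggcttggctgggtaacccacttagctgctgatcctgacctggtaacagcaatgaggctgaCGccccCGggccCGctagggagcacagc
Alb, chr5:90460620-90460919, plus strand: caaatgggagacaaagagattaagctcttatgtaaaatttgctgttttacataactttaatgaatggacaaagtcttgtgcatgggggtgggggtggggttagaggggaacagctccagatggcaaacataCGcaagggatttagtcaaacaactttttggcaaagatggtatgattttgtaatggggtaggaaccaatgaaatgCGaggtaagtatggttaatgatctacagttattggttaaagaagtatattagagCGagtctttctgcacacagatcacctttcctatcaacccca

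**Figure D2:**
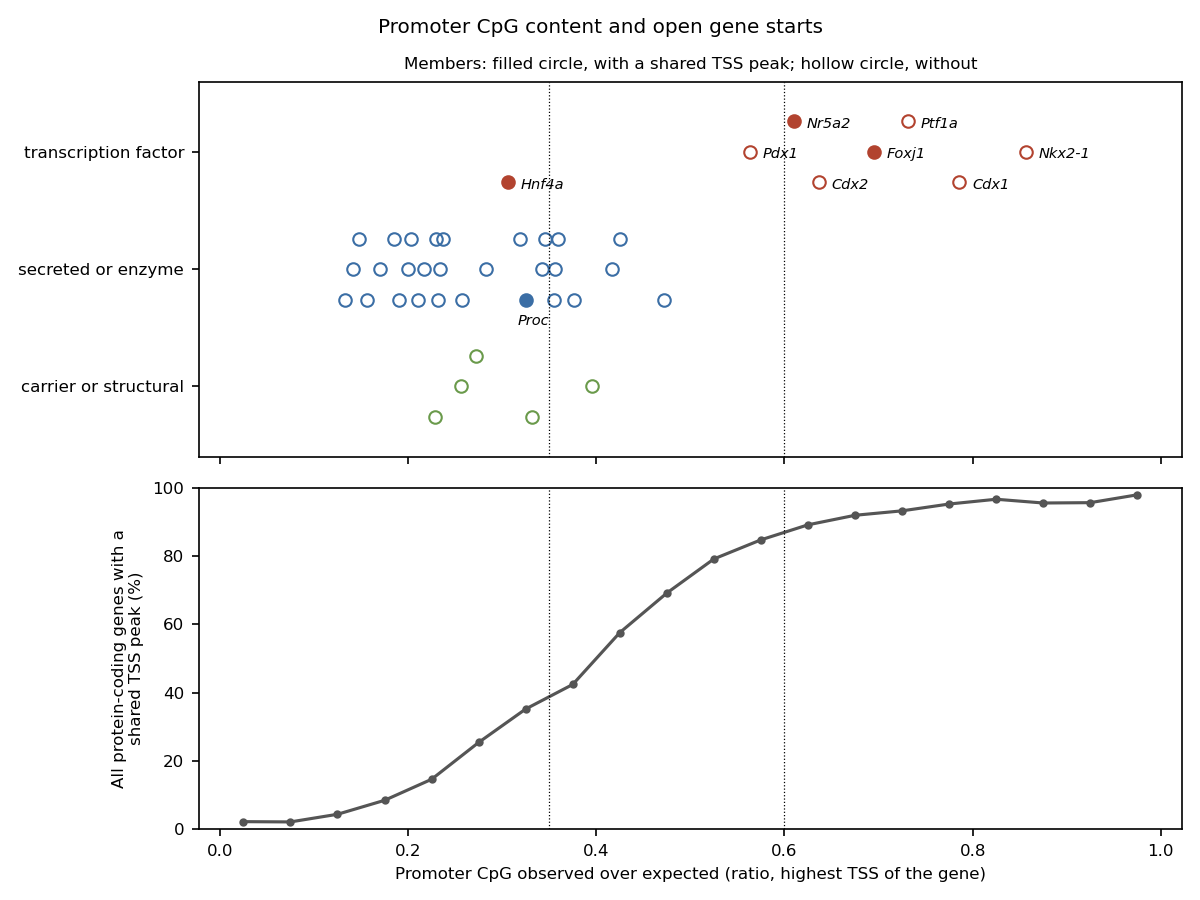
Promoter CpG content of each member by role (top; filled circles have a shared TSS peak) and the percentage of all protein-coding genes with a shared TSS peak in bins of 0.05 of CpG content (bottom). Dotted lines stand at 0.35 and 0.60. Of the 6 members to the right of 0.60, 2 circles are filled, in a range where 94.6% of all genes are open.

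Further genes of the same organs were open more often than the 41, and regulators again more often than products. These were 20 further regulators and 28 further products, with Tf matched as Trf in the annotation. They were chosen with earlier results of these data known, so they are no independent check of the 41. The median CpG content was 0.737 in the regulators and 0.269 in the products. Of the regulators 10 had a shared TSS peak (50%), against 65.1% of all genes, among them Onecut1, Prox1, Cebpa, Nr1h4, Gata6, Hhex, Klf5, Nkx6-1 and Nkx2-2. In single replicates 14 of the 20 had a TSS peak in replicate 1, against 69.4% of all genes, and 13 in replicate 2, against 68.2%. Hotspots of both replicates lay at the start of 13 of the 20, against 67.2% of all genes. Several of these also act outside endoderm, such as Prox1 in lymphatic endothelium and Cebpa in fat and myeloid cells. Foxa1 and Foxa2, the pioneer factors of endoderm, had none in either replicate, with a CpG content of 0.88 and 0.711. Of the 14 regulators above 0.60, 9 had a shared TSS peak, against 94.6% of all such genes. Between 0.35 and 0.60 it was 0 of 3 regulators, against 67.6%, and under 0.35 it was 1 of 3, against 13.5%. Foxa3, Gata4 and Sox17 had TSS peaks in each replicate that did not meet the overlap for shared. These were 1 and 1 for Foxa3, 1 and 1 for Gata4, and 7 and 2 for Sox17. Neurog3 had 1 in replicate 1 only. Foxa3 (0.595) and Neurog3 (0.549) belong to the class between 0.35 and 0.60. Of the 28 products 7 had a shared TSS peak (25%), against 65.1% of all genes: Tf, Apoh, Apoe, C3, Ass1, Ins2 and Cela1. Under a CpG content of 0.35 it was 2 of 19 products, against 13.5% of all such genes. Between 0.35 and 0.60 it was 4 of 8, against 67.6%, and above 0.60 it was 1 of 1 (Apoh), against 94.6%. In the middle class and above 0.60 the order of regulators and products was thus the other way. Few genes were in the middle class, and only 1 product was above 0.60. Apoe and C3 are also made by macrophages and other cells. The urea cycle gene Otc, the glucose genes G6pc and Pck1, the surfactant genes Sftpa1 and Sftpd and the gut enzyme genes Sis, Lct and Alpi had no TSS peak in either replicate.

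Distal peaks, which can hold enhancers, were present at most of these genes, with a lower mean but a higher median per gene than over all genes. A peak was distal where no protein-coding TSS lay within 1 kb of its centre, and it counts for the gene with the closest TSS, up to 100 kb away. There were 95 shared distal peaks at 30 of the 41 genes (73.2%), and 64.9% of all genes had at least 1. Of these peaks 2 at Ambp overlap each other and match the same peak of replicate 2, leaving 94 separate regions. Shared peaks are counted from replicate 1, so Ambp has 4 of them but only 2 distal peaks in replicate 2, where another lies just inside 1 kb of its TSS. The median per gene was 2 for the 41 genes, against 1 for all genes, where single genes had up to 109. It was 1.5 for the transcription factor genes and also 1.5 for the secreted and enzyme genes. The mean per gene was 2.62 for the transcription factor genes, 2.29 for the secreted and enzyme genes and 2.0 for the carrier and structural genes, against 3.46 for all genes. With hotspots in place of peaks the order of the first pair was the other way, at 1.88 for the transcription factor genes and 2.14 for the secreted and enzyme genes. In the full lists the transcription factor genes had 4.62 in replicate 1 and 3.88 in replicate 2 (SD 0.530, n = 2), the secreted and enzyme genes 3.71 and 3.04 (SD 0.480) and all genes 5.75 and 5.33 (SD 0.298). Relative to the sequence nearest to each gene the order was the other way, with 3.42 shared distal peaks per 100 kb for the transcription factor genes and 4.83 for the secreted and enzyme genes, against 4.79 for all genes. The transcription factor genes were also lowest in replicate 1 (6.02, 7.85 and 7.96 for transcription factor, secreted and enzyme, and all genes) and in replicate 2 (5.04, 6.42 and 7.37). The 12 limb markers had 8.45 shared distal peaks per 100 kb.

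The counts of single genes ranged from 0 to 9. Apob and Scgb1a1, the club cell secretory protein, had 9 each, Ptf1a 7 and Cps1, the first enzyme of the urea cycle, and Nr5a2 6 each. In the full lists Apob had 16 in replicate 1 and 13 in replicate 2, Scgb1a1 12 and 17, Ptf1a 7 and 9, Cps1 9 and 7, and Nr5a2 15 and 11. Fgg had 5, and 24 further genes had 1 to 4. None was shared at 11 genes, which were Afp, Apoa2, Apoc3, Fga, Fgb, F2, F10, Itih1, Cyp2e1, Fabp1 and Pdx1. Apoa2, Apoc3, Fgb, F10, Cyp2e1 and Fabp1, the liver fatty acid binding protein, had no distal peak in either replicate. Some members share a locus, so their distal peaks are not independent. Alb lies beside Afp, Apoa1 beside Apoc3, Itih1 beside Itih3, Pdx1 beside Cdx2, and the fibrinogen genes Fga, Fgb and Fgg lie together, with all 5 of their shared distal peaks nearest to Fgg.

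The distal peaks were mostly intergenic. Of the 95 shared distal peaks 63 were intergenic (66.3%), 27 intronic (28.4%) and 5 exonic, against 46.8% intergenic and 48.6% intronic over all 75905 shared distal peaks. Of the 95, 23 lay in the body of the member itself, and 9 lay in the body of another gene. At Scgb1a1, 5 of its 9 peaks lay in introns of Ahnak, which encodes a giant scaffold protein, and 1 in an exon of Asrgl1. Of the peaks at Sftpb, Vil1 and Cpa1, 1 each lay in Usp39, Usp37 and Cpa5. The 8 intronic peaks of the transcription factor genes were in Hnf4a and Nr5a2 themselves. Cps1 held 4 of its 6 in its own introns and Apob 1 of its 9.

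**Figure D3:**
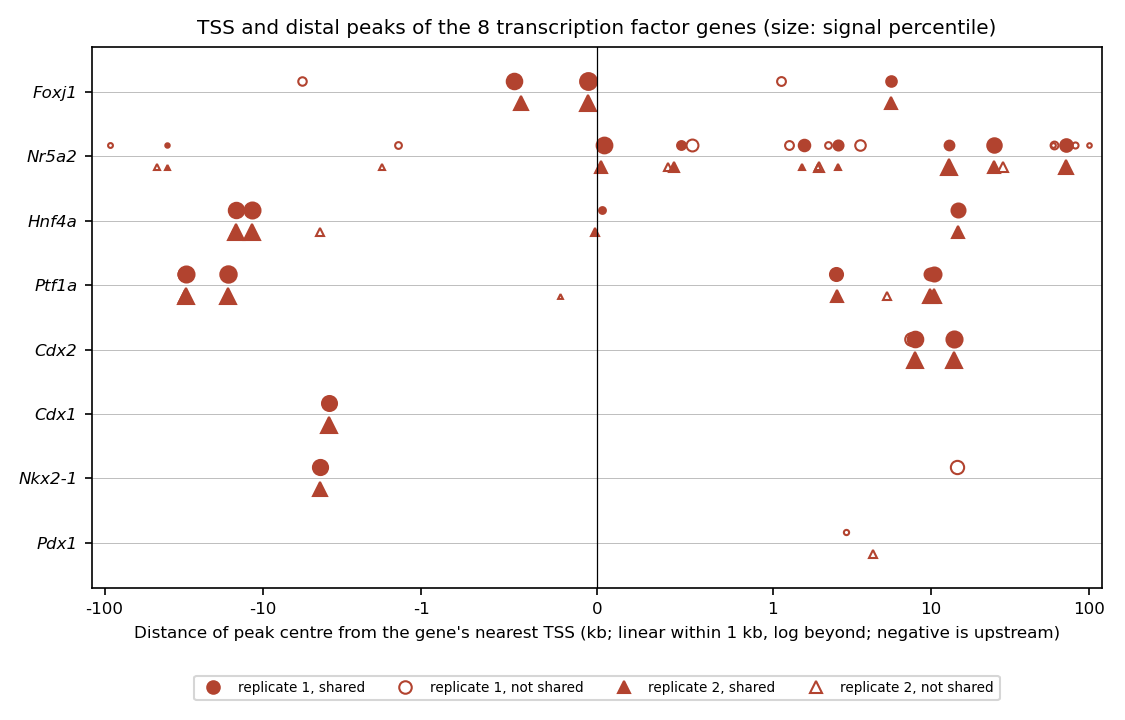
Position of every TSS and distal peak of the 8 transcription factor genes, by distance of its centre from the nearest TSS of the gene in kb (linear within 1 kb, logarithmic beyond, negative upstream), for replicate 1 (circles) and replicate 2 (triangles), with marker size by signal percentile and filled markers for shared peaks. Foxj1, Nr5a2 and Hnf4a have filled markers at the start, and Cdx2, Cdx1, Nkx2-1 and Pdx1 have no marker within 1 kb of it.

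Several transcription factor genes without a shared TSS peak had distal peaks of high signal. Distal peaks were ranked by the mean of their percentiles in the 2 replicates. Ptf1a had a peak 16.5 kb upstream with 102 in replicate 1 and 78 in replicate 2 (93.6th and 93.5th percentiles) and another 30.4 kb upstream with 92 and 67. Cdx2 had 93 and 65 at 13.9 kb downstream of its TSS, and 83 and 57 at 7.94 kb. Cdx1 had its 1 shared peak 3.79 kb upstream, with 74 and 56, and Nkx2-1 its own 4.36 kb upstream, with 76 and 44. Hnf4a had 91 and 56 in an intron 11.7 kb upstream of its nearest TSS. By that rank the first of Nr5a2 lay in an intron 71.5 kb downstream of the nearest TSS with 51 and 43, although its peak at 25 kb was higher in replicate 1 (67 and 34) and its peak at 12.9 kb higher in replicate 2 (38 and 55). The shared distal peak of Foxj1, 5.57 kb downstream, had 41 and 34. Over the 21 distal peaks of the transcription factor genes the median signal percentile was 75.2 in replicate 1 and 73.3 in replicate 2. It was 69.0 and 63.0 over the 64 of the secreted and enzyme genes and 39.2 and 43.0 over the 10 of the carrier and structural genes, against 63.2 and 61.1 over all shared distal peaks.

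Among all members the distal peak first by mean percentile lay 5.31 kb downstream of the TSS of Scgb1a1, with 108 in replicate 1 and 83 in replicate 2. The next, slightly higher in replicate 1, was in an exon of Apoa1, the main protein of high-density lipoprotein, 1.37 kb from its TSS, with 109 and 77. It had 64.7% G and C bases and a CpG ratio of 0.829 over its 150 bp. The ratio at the start of Apoa1 was 0.217, but over the longer window of 500 bp on each side of a TSS. Intergenic peaks of Ambp, the precursor of alpha-1-microglobulin and bikunin (103 and 71), and of Fgg (90 and 72) followed, with the peaks of Ptf1a between and after them. The list of the first 10 was completed by an Ahnak intron near Scgb1a1 (88 and 70), the peak of Cdx2 with 93 and 65, Cpa1, the pancreatic carboxypeptidase (83 and 68), and Cldn18, a claudin of stomach and lung (95 and 56). The shared distal peak of Alb, in an exon 4.73 kb from its nearest TSS, had 55 and 27. In both replicates 57 of the 95 peaks (60.0%) were above the median of their list, as were 57.4% of all shared distal peaks.

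**Figure D4:**
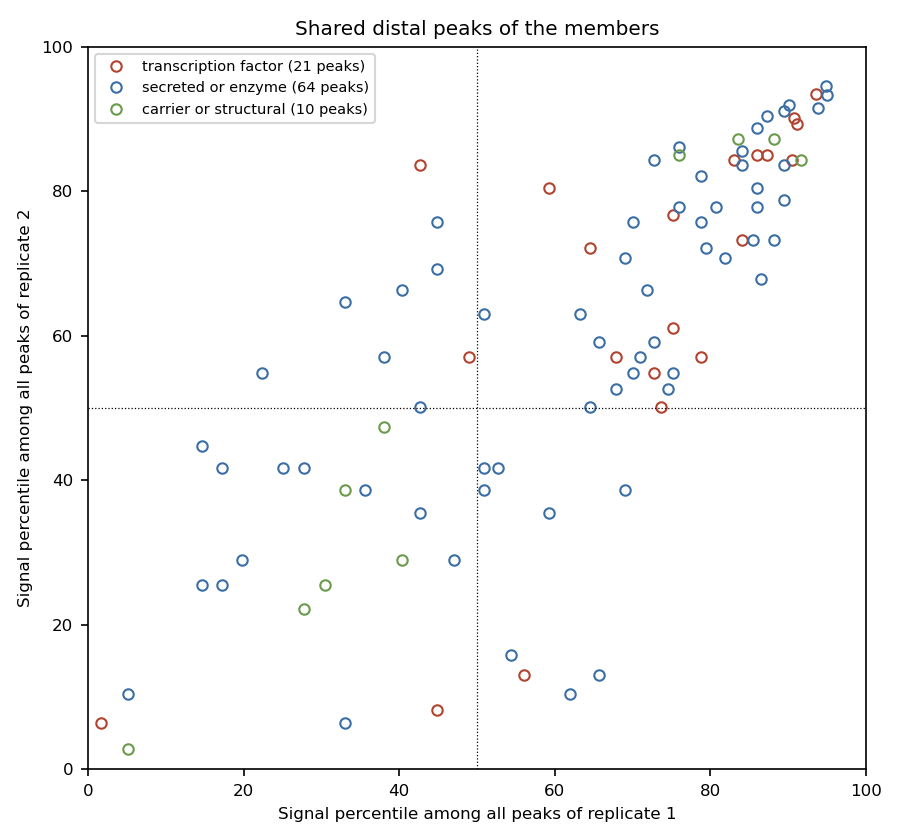
Signal percentile of the 95 shared distal peaks of the members in replicate 1 (x) and replicate 2 (y), each within all peaks of that replicate, by role. Dotted lines mark the median of each list, and 57 peaks lie above both.

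The share of distal peaks found in both replicates was close to that of all distal peaks in replicate 1 and higher in replicate 2. Of the members' distal peaks in replicate 1, 59.7% (95 of 159) were shared, against 60.2% of all distal peaks. Of those in replicate 2, 71.8% (94 of 131) were shared, against 65% of all. The transcription factor genes had 56.8% and 67.7%, and the secreted and enzyme genes 61.5% and 72.9%.

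The sequences of the 95 distal peaks were searched on both strands for 19 motifs, each given with its share of all 75905 shared distal peaks. Each motif was a fixed pattern of letters, so a site that differs from it by a single letter counts as absent. The site of the insulator protein CTCF was in 13 of the 95 (13.7%), at 12 genes, against 6.52% of all. By role it was in 4 of 21 at the transcription factor genes, 8 of 64 at the secreted and enzyme genes and 1 of 10 at the others. Peaks with the site stood at Cdx2, Cdx1, Nkx2-1, Hnf4a and Scgb1a1, among others. The TEAD site GGAATG was in 20 (21.1%, against 13.3%), the AP-1 site TGANTCA in 8 (8.42%, against 6.49%), the E-box CAGCTG in 11 (11.6%, against 20.1%), the RUNX site TGTGGT in 9 (9.47%, against 12.5%) and the GC box GGGCGG in 2 (2.11%, against 6.84%). REST, which silences neuronal genes outside the nervous system, had its site in 2 (2.11%, against 0.436%), 1 of them the strongest distal peak of Ptf1a.

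Motifs of endoderm factors were in few peaks, as they were in few of all shared distal peaks. The HNF4 site CAAAGTCCA, the HNF1 site and the NR5A site TCAAGGTCA were in 0 of the 95, against 0.17%, 0.00395% and 0.144% of all shared distal peaks. The FOX site (TGTTTAC or TATTTAC) was in 2 (2.11%, against 3.22%), the C/EBP site TTGCNCAA in 1 (1.05%, against 1.62%), the GATA site AGATAA in 3 (3.16%, against 4.60%), the NKX2 site CACTTGA in 2 (2.11%, against 1.90%) and the CDX and HOX13 site TTTATNG in 3 (3.16%, against 8.70%). The homeodomain site TAATTA was in 3 (3.16%, against 2.65%). The SOX site ACAATGG (1.65% of all), the NFI site (0.289%) and the RFX site (0.209%) were in 0. With 95 peaks a difference of 1 peak moves a share by about a percentage point, and a match is a description of the letters only. The strongest distal peaks of Scgb1a1 and Cdx2, that of Nkx2-1 and that of Ptf1a are shown on the plus strand of mm10, as examples of distal peaks with a CTCF or REST site at genes without a shared TSS peak. Capitals mark the CTCF site in the first 3 and the REST site in Ptf1a, and also any GC box (GGGCGG or CCGCCC) or E-box CAGCTG. The peak in the exon of Apoa1 follows with its 13 CpGs in capitals.
Scgb1a1, chr19:9082576-9082725, plus strand: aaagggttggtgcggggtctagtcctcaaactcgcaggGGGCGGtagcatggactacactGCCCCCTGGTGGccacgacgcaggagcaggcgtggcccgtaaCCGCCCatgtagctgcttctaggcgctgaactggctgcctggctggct
Cdx2, chr5:147293276-147293425, plus strand: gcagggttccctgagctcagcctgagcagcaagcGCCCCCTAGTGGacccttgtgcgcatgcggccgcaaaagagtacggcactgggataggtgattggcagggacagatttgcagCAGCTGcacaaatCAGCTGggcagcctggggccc
Nkx2-1, chr12:56541196-56541345, plus strand: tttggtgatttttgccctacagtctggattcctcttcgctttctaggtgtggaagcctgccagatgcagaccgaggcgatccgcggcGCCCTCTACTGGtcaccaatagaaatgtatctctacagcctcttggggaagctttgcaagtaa
Ptf1a, chr2:19429116-19429265, plus strand: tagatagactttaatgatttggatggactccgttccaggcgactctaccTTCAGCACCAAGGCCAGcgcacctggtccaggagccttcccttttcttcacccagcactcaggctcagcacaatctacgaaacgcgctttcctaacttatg
Apoa1, chr9:46230016-46230165, plus strand: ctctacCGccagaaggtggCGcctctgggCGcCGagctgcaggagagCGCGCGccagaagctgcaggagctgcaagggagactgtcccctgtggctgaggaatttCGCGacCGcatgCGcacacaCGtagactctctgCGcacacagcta

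Promoter sequence from 250 bases before to 50 after the start was at hand for 32 of the 41 genes and for 16522 protein-coding genes in all. A TATA box (TATAAA, 45 to 15 bases before the start, read in the direction of transcription) was in 3 of the 32 (9.38%), at Cyp2e1, Fabp1 and Gcg, against 3.12% of all. The GC box was in 6 (18.8%), against 51.0%. The C/EBP site was in 3 (9.38%), at Fga, Fgb and F9, against 3.20%, and the FOX site in 5 (15.6%), at Apoa2, Fgb, Cdx2, Fabp2 and Gcg, against 6.31%. The GATA site was in 6 (18.8%), at Ahsg, Tat, Muc2, Cldn18 and the transcription factor genes Hnf4a and Nr5a2, against 11.0%. The NKX2 site was in 2 (6.25%), at F9 and Nr5a2, against 3.40%, and the CDX and HOX13 site in 4 (12.5%), at Apob, Fabp1, Fabp2 and Cpa1, against 11.1%. The HNF1, HNF4, NR5A and RFX sites were in 0 of the 32, against 0.0787%, 0.551%, 0.387% and 0.121% of all. These fixed patterns are so rare in promoters that 0 of 32 was likely for any set of genes. Absence of a match thus does not show that a promoter lacks a site for these factors.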

How the data were processed

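DNase-seq of limb at embryonic day 14.5 was used as deposited for 2 replicates. The authors deposited, for each replicate, narrow peaks with a signal per peak in a unit that the labels do not state, and hotspots with a −log10 q-value with a ceiling of 100, on mm10 per the labels. Nothing in the labels or headers names the caller, its filters or the aligner. Peaks on autosomes, X and Y were used, which set aside 291 in replicate 1 and 277 in replicate 2. Genes were those of GENCODE M21, and all 41 matched by symbol. A peak was shared where a peak of replicate 2 covered at least 50% of it, and kept the coordinates of replicate 1. TSS peaks overlapped 500 bp on either side of any TSS of the gene. Peaks that did not overlap such a window but had their centre within 1000 bp of a protein-coding TSS were in neither class. Some peaks of a list overlap each other (14824 in replicate 1 and 13200 in replicate 2). Percentiles are ranks within a list. Values were computed with Python 3.11.15, numpy 2.4.6, scipy 1.17.1 and pysam 0.24.0, and the assignment of peaks was tested on simulated regions. The alternatives were another overlap, the 50000 strongest peaks, hotspots, each replicate alone, other TSS windows, the outermost TSS, a limit of 50 kb and the coordinates of replicate 2. All members were accounted for, with full values for those with a TSS peak in either replicate, the 5 with the most shared distal peaks, the strongest distal peak of each transcription factor gene and the 10 strongest distal peaks by mean percentile, while further genes of these organs were named where they had a shared TSS peak, except for an item that is not reported here. Any further gene was named after its values were seen. The members, lists and motifs were chosen with earlier results of these data known.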

Additional observations from a re-analysis of the deposited data

How the results depend on the processing

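No paired analysis was possible because the study has 1 group. Foxj1 had a shared TSS peak, or a TSS peak of the replicate kept, under all 10 alternatives, and the carrier and structural genes had none under any. With the 50000 strongest peaks the open members fell to 2 (Foxj1 and Proc), with 1 transcription factor gene, 3 TSS peaks, 27 distal peaks at 18 genes, and means of 0.875 and 0.607 distal peaks per transcription factor gene and per secreted or enzyme gene. With the outermost TSS only, 1 member was open (Foxj1), hence 1 transcription factor gene and 0 secreted or enzyme genes, with 2 TSS peaks and means of 3.75 and 2.89. A window of 1000 bp added Afp, Ambp, Apob, Itih1 and Sftpb, for 9 members, 6 secreted or enzyme genes and 12 TSS peaks, while 250 bp removed Proc, leaving 0 secreted or enzyme genes and 3 TSS peaks. Hotspots in place of peaks added Afp, for 2 secreted or enzyme genes, and gave means of 1.88 for transcription factor genes and 2.14 for secreted or enzyme genes, the other way round from 2.62 and 2.29 with peaks. With 1 replicate left out, the open secreted or enzyme genes were 2 to 3, the distal peaks 131 to 159, and the means 3.88 to 4.62 for transcription factor genes and 3.04 to 3.71 for secreted or enzyme genes. Transcription factor genes were no longer most of the open members in replicate 1 alone (3 of 6), with a window of 1000 bp (3 of 9) or with the 50000 strongest peaks (1 of 2). The cause of these changes was not tested, beyond the wider or narrower windows and lists themselves. No share of all genes is given for the other windows, the outermost TSS or the 50000 strongest peaks. The changes there can therefore not be read as particular to the members. The unknown depth limits any statement on starts without a peak.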
